A study of Mus musculus with 48 samples.

Results

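Ketohexokinase (Khk), the enzyme that opens fructose breakdown, and the enzymes of glycolysis were followed in the caecum of mice after gavage with chicory or with 1 of its compounds. The genes were picked out by symbol, as Khk and the isoforms of the glycolytic enzymes from hexokinase to enolase, with lactate dehydrogenase. Of 21 such symbols, 13 were in the caecum table, out of 3779 genes tested. The 12 described by name are Khk, Hk1, Gpi1, Pfkl, Aldoa, Tpi1, Gapdh, Pgk1, Pgam1, Eno1, Eno3 and Ldha, and the counts cover all 13.

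Expression was read on 16 one-colour Agilent arrays, with 1 mouse on each. Mice of 8 weeks on standard chow received 500 µL by gavage each day for 30 days. The Chic mice (n = 3) received a chicory flour decoction equal to 30 mg of root powder a day and the Fru mice (n = 3) a fructose solution, and both ran in parallel with the control Ctr1 (n = 2). The CGA mice (n = 3) received chlorogenic acids and the STL mice (n = 3) sesquiterpene lactones. Both ran in another period in parallel with the control Ctr2 (n = 2). By the methods, the fructose, chlorogenic acid and sesquiterpene lactone doses were all set to match their amount in the daily chicory dose. The labels give water for both controls, whereas the methods name a solvent, DMSO, for Ctr2 in one place. The tissue is caecum in the labels and colon in the design text. The labels tag 8 of the 16 arrays as female (Fru 2, Fru 3 and all CGA and STL mice), although all 16 source names say male. The Y-linked gene Eif2s3y had log2 values of 8.33 to 9.40 on the arrays tagged female and 7.57 to 9.00 on those tagged male, so the 2 ranges overlapped. The tag and the CGA and STL diets cannot be told apart within the second period.

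Fructose enters intestinal cells through transporters of the apical membrane. Khk then phosphorylates it to fructose 1-phosphate, which is split into 3-carbon units that join glycolysis below phosphofructokinase, its main controlled step. In mice the small intestine clears much of a low dose of fructose, and what escapes it reaches the caecum and its bacteria. Khk is known as a gene of the liver, kidney and small intestine, while Hk1, Aldoa, Gapdh, Pgk1, Eno1 and Ldha are made in most tissues.

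The arrays differed in brightness. The median deposited intensity of Fru 2 was 186, against 479 to 1687 on the other 15 arrays, and its log2 values had a mean correlation of 0.85 with the other arrays, against 0.88 to 0.93 for these. The lowest intensity on Ctr1 2 was 300, against 35 or less on every other array. All values below are log2 intensities after quantile normalization over the 16 arrays, and a difference of 1 is a doubling. All 15 markers of colonic epithelium were in the table, with summed levels of 99632 to 179472, whereas the exocrine pancreas and skeletal muscle lists had 0 of 10 genes each in it. With bulk tissue, fewer cells of a type and less RNA per cell cannot be told apart.

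No enzyme of fructose use or glycolysis passed the test under any diet. In limma, 0 of 13 passed an adjusted p of 0.05 for Chic, Fru, CGA or STL, and 0 had an unadjusted p under 0.05, where the lowest was 0.104 for Aldoa under CGA. The background was as sparse: the share of all genes called was 0% under Chic, 0.0265% under Fru, 0% under CGA and 0% under STL. The 1 gene called, under Fru, was the lysosomal alpha-galactosidase Gla, named after its values were seen, with a log2 fold change of 3.11. At an unadjusted p under 0.05, 104, 269, 131 and 108 of all genes stood out under Chic, Fru, CGA and STL.

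The median log2 fold change of the 13 enzymes lay near that of all genes. It was 0.07 under Chic (0.03 over all genes), −0.11 under Fru (0.01), 0.04 under CGA (0.04) and 0.04 under STL (0.03). The 12 named enzymes ran from −0.58 to 0.34 under Chic, −0.41 to 0.41 under Fru, −0.29 to 0.53 under CGA and −0.32 to 0.49 under STL. Chic and Fru share the Ctr1 mice and CGA and STL the Ctr2 mice, so a sign shared within either pair is not seen independently. Of the 52 intervals (95%), 34 lay within a log2 change of 1 on both sides, and 7 genes had all 4 intervals there: Tpi1, Gapdh, Pgk1, Pgam1, Eno1, Ldha and Gpi1. For Khk, Hk1, Pfkl, Aldoa and Eno3 a doubling or a halving remained inside at least 1 interval.

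**Figure D1:**
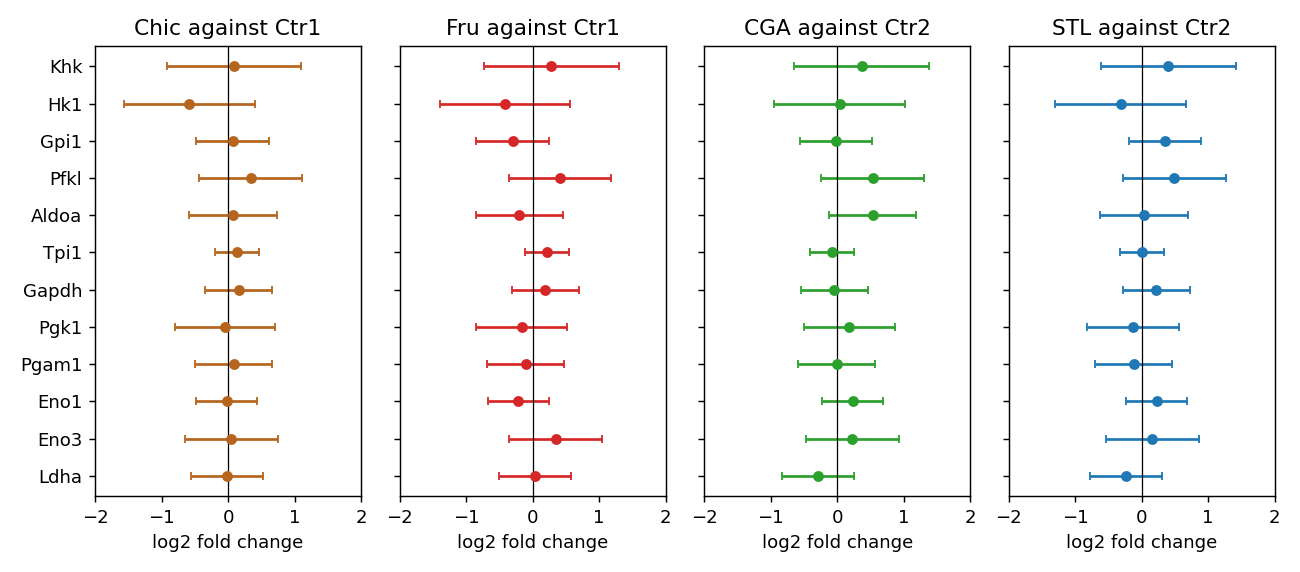
Log2 fold change (x axis) of the 12 named enzymes (rows) in limma, in 4 panels for Chic and Fru against Ctr1 and CGA and STL against Ctr2, with 95% confidence intervals as bars. Every interval includes 0, Tpi1 has the narrowest and Khk the widest.

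Khk, the first enzyme of fructose use, had log2 values of 8.37, 8.62 and 8.98 in the Chic mice and 8.36, 10.23 and 7.96 in the Fru mice, against 8.60 and 8.54 in the Ctr1 mice. The Fru mice lay on both sides of the controls, and Fru 2 stood far above the other Fru mice. In the second period Khk was 9.03, 8.84 and 8.59 in the CGA mice and 8.77, 8.72 and 9.05 in the STL mice, against 8.43 and 8.47 in the Ctr2 mice. Here all 6 diet mice lay above both controls. All genes placed in the same way made up 11.3% under CGA and 11.1% under STL, and genes with all diet mice below both controls 6.88% and 6.03%.

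The log2 fold changes of Khk were 0.09 under Chic, 0.28 under Fru, 0.37 under CGA and 0.40 under STL (SE 0.47 each), with limma adjusted p-values of 0.978 under Fru and 0.999 or above under the others. The intervals (95%) ran from −0.93 to 1.10 under Chic, −0.73 to 1.29 under Fru, −0.65 to 1.38 under CGA and −0.61 to 1.41 under STL. They share 1 SE because limma pooled the spread of all 6 groups, and the SD of Khk was 1.21 in the Fru mice, against 0.18 to 0.31 in the other diets. Without Fru 2, the Khk difference under Fru was −0.41, on the other side of 0. Fru against Chic gave 0.19 (SE 0.42), or −0.50 without Fru 2.

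The height of Khk on Fru 2 also rested on the scaling. Its deposited intensity there was 261, within the range of 231 to 682 over the 16 arrays. On that dim array 261 ranked at percentile 63.0 of the genes, whereas Khk ranked between percentiles 3.52 and 27.9 on the other 15. With values as deposited, the Khk differences were −0.05 under Chic, −0.28 under Fru, 0.01 under CGA and 0.03 under STL, while the median of all genes moved to −0.08 under Chic, −0.60 under Fru, −0.28 under CGA and −0.31 under STL. Relative to these medians, Khk lay at 0.03 under Chic, 0.32 under Fru, 0.29 under CGA and 0.33 under STL. Of 36 single-gene results, 14 turned their sign with values as deposited, and all 14 had their first sign again relative to the median of all genes. Taking off that median is itself a scaling, so this return is no separate support for the signs. On Ctr1 2 the Khk intensity of 360 was 1.2 times the lowest value of that array. No background values were used here, so whether Khk rose above background in caecum could not be read.

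**Figure D2:**
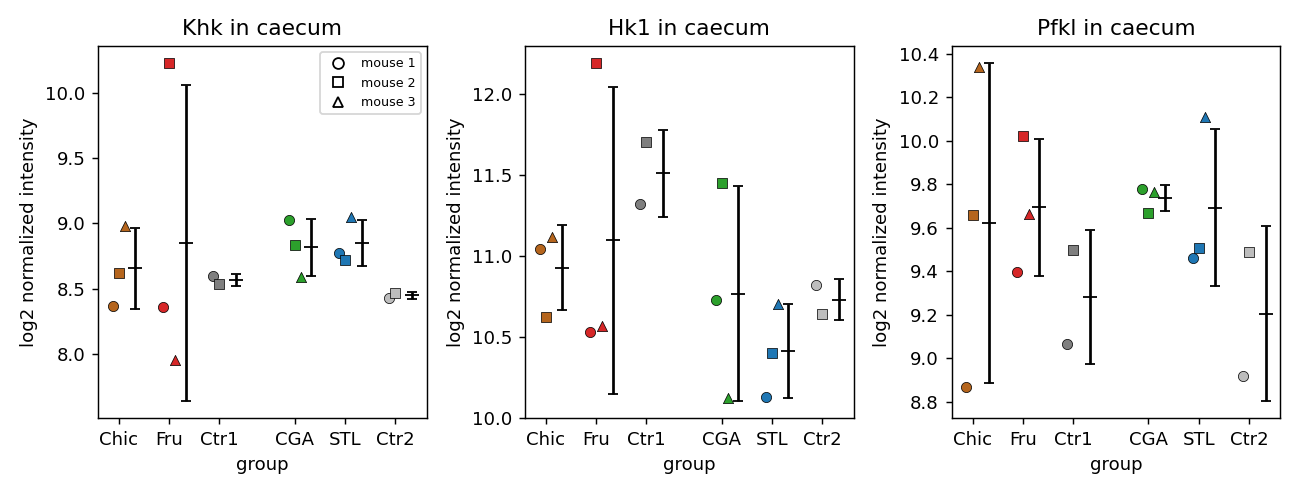
Log2 normalized intensity (y axis) of Khk, Hk1 and Pfkl in each mouse, by group (x axis), with the mean and SD of the group beside its mice as a dash and a bar. Khk and Hk1 are highest on Fru 2 (10.23 and 12.20), and Pfkl is highest in Chic 3 (10.34).

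Both Khk and Ldha carry the hexamer CACGTG upstream of a listed start in RefSeq promoters (build GRCm38.p6). Another listed Ldha promoter holds it 0 times. Carbohydrate response elements are made of pairs of E-boxes of this kind, often imperfect ones, through which the sugar-sensing factor ChREBP (gene Mlxipl) acts on genes of fructose and glucose use. The stretches around it are shown because Khk and Ldha were the 2 of 12 enzymes with a promoter sequence that hold it in the 250 bases before and 50 after the start, on either strand (the hexamer reads alike on both), against 8.09% of all genes. Capitals mark the hexamer.
Khk, chr5:30921461-30921520, plus strand: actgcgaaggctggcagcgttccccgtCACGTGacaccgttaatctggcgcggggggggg
Ldha, chr7:46845632-46845788, plus strand: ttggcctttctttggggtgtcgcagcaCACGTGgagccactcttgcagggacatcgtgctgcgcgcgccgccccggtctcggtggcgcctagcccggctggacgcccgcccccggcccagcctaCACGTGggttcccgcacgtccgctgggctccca
The Khk stretch holds it 1 time and the Ldha stretch 2 times. The shorter ACGTG, the core of the hypoxia response element and part of the E-box, was in 7 of 12 on either strand (Khk, Hk1, Aldoa, Gapdh, Pgk1, Pgam1 and Ldha), against 21.8% of all genes. Ldha, which turns pyruvate into lactate, differed from its control by 0.03 on the log2 scale under Fru (SE 0.25, limma adjusted p = 0.998), with a sign that turned with pooled controls (−0.05), and Khk by the amounts above.

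Paneth cells sit in the crypts of the small intestine and are scarce in normal large bowel. The 8 of 21 listed Paneth cell markers in the table (Lyz1, Defa1, Defa2, Defa3, Defa23, Itln1, Pla2g2a and Reg3g, with Defa1 the brightest) had summed levels of 26424, 89068 and 2463 in the Chic mice and 2678, 7273 and 53972 in the Fru mice, against 5284 and 112866 in the Ctr1 mice. They were 2526, 2653 and 10777 in the CGA mice and 2802, 32565 and 89138 in the STL mice, against 42788 and 85825 in the Ctr2 mice. The CGA mice were all below both Ctr2 mice, while the other diets overlapped their controls. The mouse with the most Paneth cell signal had the highest Khk of its group in 2 of 6 groups and the highest Eno1, an enolase of most tissues, in 5 of 6, and 5.17% of all genes did so in 5 or more. The mouse with the least had the lowest Khk in 1 of 6 groups and the lowest Eno1 in 2 of 6. The 9 of 20 small intestinal enterocyte markers in the table summed to 29040 to 32596 in the CGA mice, against 34912 to 44004 in the Ctr2 mice, and the other diets overlapped their controls. The mouse with the most of them had the highest Gapdh in 5 of 6 groups, as did 2.1% of all genes in 5 or more. The mouse with the least of them had the lowest Gapdh in 3 of 6. The 7 of 12 liver markers in the table summed to 673 to 4529 in the Fru mice, against 8853 to 16840 in the Ctr1 mice, with no overlap. The 8 of 9 goblet cell markers summed to 60781 to 77870 in the Fru mice, against 78827 to 91279 in the Ctr1 mice, and to 66759 to 72923 in the STL mice, against 74796 to 80760 in the Ctr2 mice, again with no overlap. The 8 of 10 smooth muscle markers summed to 25312 to 26677 in the Fru mice, against 28150 to 30958 in the Ctr1 mice. Plasma cell markers (3 of 8) were 11779 to 13744 under CGA, 11602 to 13238 under STL and 15125 to 15215 in Ctr2. Fibroblast and matrix markers (5 of 7) were 5300 to 6440 under STL and 7178 to 7269 in Ctr2. In each of these the diet mice were all below both controls. Of all genes, 7.73% lay below both controls under Fru, 6.88% under CGA and 6.03% under STL. The colonic epithelium, immune cell, fat cell and red blood cell sums overlapped their controls under every diet, and under Chic every list did. No test was run on the sums, so they do not show a change in cell content. The part of these cells in the enzyme values was not tested.

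Of the upper glycolytic enzymes Hk1, Gpi1 and Pfkl, hexokinase 1 (Hk1), which phosphorylates glucose, varied most between mice. It had log2 values of 11.04, 10.63 and 11.12 in the Chic mice and 10.54, 12.20 and 10.57 in the Fru mice, against 11.32 and 11.70 in the Ctr1 mice. All 3 Chic mice lay below both controls, as did 6.54% of all genes, and the log2 fold change was −0.58 (SE 0.46). Under Fru it was −0.41, and −0.96 without Fru 2. Hk1 had 2 probes, and they disagreed: the other probe lay 2.78 below the brighter one on Fru 2 and 1.80 below it on Ctr1 2, against a median of 0.18 below it, and gave a log2 fold change of 0.04 under Chic.

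Gpi1, which turns glucose 6-phosphate into fructose 6-phosphate, had log2 values of 12.94, 12.08 and 12.54 in the Fru mice, against 12.88 and 12.76 in the Ctr1 mice. It had 12.84, 13.43 and 13.17 in the STL mice, against 12.59 and 13.02 in the Ctr2 mice. The log2 fold changes were −0.30 under Fru and 0.35 under STL (SE 0.25 each), both with overlapping groups. They were −0.08 under Fru without Fru 2 and 0.13 under STL without Ctr2 1.

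Pfkl, the liver type of phosphofructokinase, had positive fold changes under all 4 diets. It had log2 values of 9.78, 9.67 and 9.76 in the CGA mice and 9.46, 9.51 and 10.11 in the STL mice, against 8.92 and 9.49 in the Ctr2 mice. All CGA mice lay above both controls, as did 11.3% of all genes, and the STL mice overlapped them. In the first period it had 8.87, 9.66 and 10.34 in the Chic mice and 9.40, 10.02 and 9.66 in the Fru mice, against 9.07 and 9.50 in the Ctr1 mice. Its log2 fold changes were 0.41 under Fru and 0.53 under CGA (SE 0.36 each), with limma adjusted p-values of 0.933 and 1.00, and were 0.20 without Ctr1 1 and 0.25 without Ctr2 1. The 4 of 7 red blood cell markers in the table summed to 90087 on STL 3, against 7271 to 25817 on the other arrays. The mouse with the most of them had the highest Pfkl in 5 of 6 groups, as for 5.72% of all genes in 5 or more. The mouse with the least of them had the lowest Pfkl in 4 of 6. Pfkl, like Eno1 and Gapdh above, had the highest such count of the named enzymes for its markers. The part of these cells was not tested.

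Aldoa, the aldolase of most tissues, had log2 values of 12.98, 12.59 and 13.31 in the CGA mice, against 12.24 and 12.61 in the Ctr2 mice. These groups overlapped at a single value on each side, and the log2 fold change was 0.53 (SE 0.31), or 0.35 without Ctr2 1. Under Fru it was −0.20, and 0.06 without Fru 2.

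Triosephosphate isomerase (Tpi1), which interconverts the triose phosphates that aldolase makes, had the tightest values of the 12. Its log2 values were 12.24, 12.31 and 12.38 in the Chic mice and 12.35, 12.49 and 12.34 in the Fru mice, against 12.19 and 12.17 in the Ctr1 mice. All 6 diet mice of that period were above both controls, as were 9.18% of all genes under Chic and 10.4% under Fru. The log2 fold changes were 0.13 under Chic and 0.21 under Fru (SE 0.15 each, limma adjusted p = 1.00 and 0.870). Tpi1 was 12.47 and 12.40 in the Ctr2 mice, above both Ctr1 mice and every Chic mouse. The pooled SD of Tpi1 within groups was 0.11, lower than that of all but 0.609% of genes.

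The lower glycolytic enzymes gave small differences. Eno3, the enolase of muscle, was 9.20, 9.94 and 9.33 in the Fru mice, against 9.13 and 9.16 in the Ctr1 mice, with no overlap (higher in 10.4% and lower in 7.73% of all genes) and a log2 fold change of 0.35 (SE 0.33), or 0.12 without Fru 2. Gapdh, Pgk1, Pgam1, Eno1 and Ldha gave log2 fold changes of 0.19, −0.16, −0.11, −0.21 and 0.03 under Fru, all with overlapping groups, and in other diets they stayed between −0.29 (Ldha under CGA) and 0.23 (Eno1 under CGA). The sign of Gapdh under Fru turned with the mean of all its probes (−0.06), and that of Pgam1 without Fru 2 (0.14). Pgk1 had no value in Chic 2, where its intensity was at or below 0, so its Chic values rest on 2 mice.

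**Figure D3:**
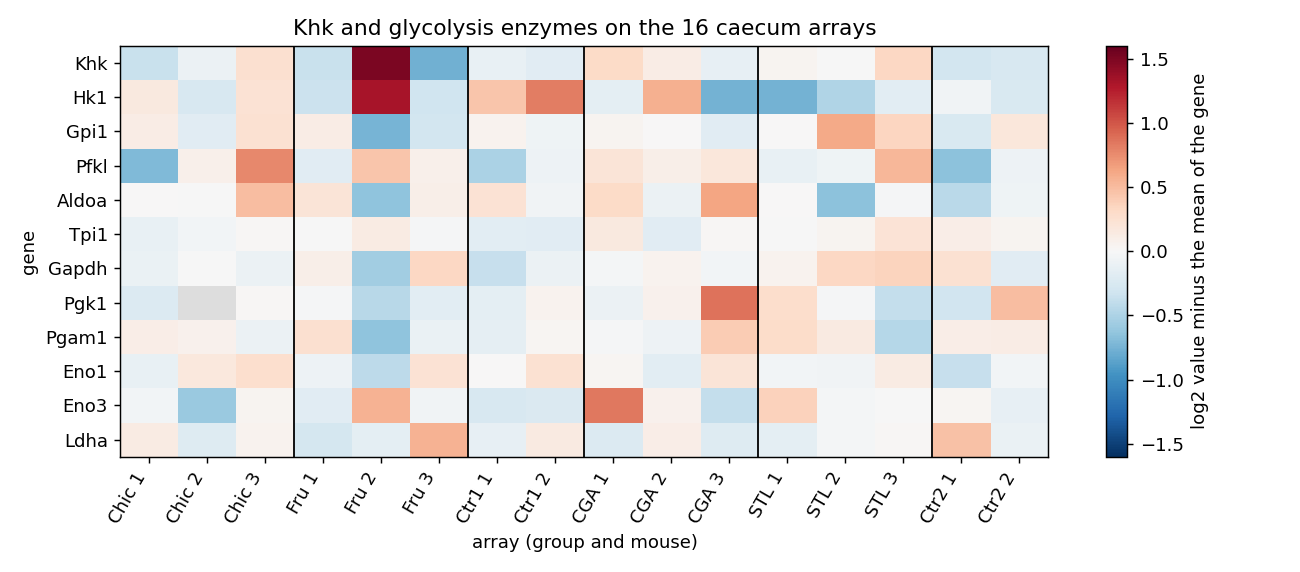
Log2 normalized intensity of the 12 named enzymes (rows) on the 16 arrays (columns, by group), as the difference from the mean of each gene, with a missing value in grey and lines between groups. Fru 2 holds the highest Khk and Hk1 values and the lowest values of 5 other enzymes.

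Mice of the same group spread widely for Khk and Hk1. The pooled SD within groups was 0.57 for Khk and 0.55 for Hk1, against a median of 0.30 over all genes, and 8 of 13 enzymes were above that median. Fru 2 held the lowest value of 5 enzymes and the highest of 2, whereas 22.3% and 17.1% of all genes had their lowest or highest value there. The study's thresholds for single mice, a fold over 2 or under 0.5 of the control mean, were applied to the values normalized here. The methods do not state in how many mice they had to be met. In all 3 mice of a diet 0 enzymes passed, where 0.132% of all genes passed under Chic, 0.926% under Fru, 0.9% under CGA and 0.476% under STL. In single mice Pfkl met them in Chic 3 and Khk in Fru 2 of the 12 named enzymes, and 7.25% of all genes met them in at least 1 Chic mouse and 16% in at least 1 Fru mouse.

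The controls of the 2 periods were also compared. In Ctr2 against Ctr1, 0 of 13 enzymes passed in limma (background 0%), and Khk differed by −0.12 (SE 0.51). With 2 mice on each side, 3 enzymes were higher and 4 lower with no overlap, against 19.9% and 13.6% of all genes. Fru against Chic gave 0 calls (background 0%) and 0 enzymes with no overlap (1.98% of all genes higher and 2.28% lower). Across 78 tests of a difference between contrasts or diets over the enzymes, 0 passed in limma, 0 had an unadjusted p under 0.05, and the lowest adjusted p was 0.995.

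Related pathways were described by lists. In limma, 0 genes of the lists for sugar transport, the polyol pathway, other glycolysis genes, lactate and pyruvate use, gluconeogenesis, the pentose phosphate pathway, glycogen and nucleotide sugars, lipogenesis and hypoxia were called in any diet, beside the shares of all genes called that are given above. The lists had from 2 to 7 genes measured outside the 13. The fructose transporters Slc2a5 and Slc2a2 and the regulator Mlxipl were on these lists but not among the genes measured, so they could not be analysed.

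The largest moderated statistic among the lists belonged to Slc2a1, the glucose transporter GLUT1. It had log2 values of 12.08, 11.80 and 11.60 in the CGA mice and 11.48, 11.50 and 11.30 in the STL mice, against 11.39 and 9.55 in the Ctr2 mice. The CGA mice were above both controls, as were 11.3% of all genes, and Ctr2 2 stood far below every other mouse. The log2 fold change under CGA was 1.36 (SE 0.39, limma adjusted p = 1.00), 2.28 without Ctr2 1 (adjusted p = 0.000659) and 0.44 without Ctr2 2, so its size rested on 1 control mouse. In the first period Slc2a1 was 11.31, 11.38 and 11.40 in the Chic mice and 11.42, 10.64 and 11.28 in the Fru mice, against 11.02 and 11.04 in the Ctr1 mice.

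The other genes that led their lists did not pass either. Akr1b3, aldose reductase of the polyol route from glucose to fructose, gave a log2 fold change of 0.26 under Fru (SE 0.16). Pcx, pyruvate carboxylase, gave 0.49 under Fru (SE 0.23, limma adjusted p = 0.721), or 0.31 without Ctr1 1. Scd2, a fatty acid desaturase, gave −0.99 under CGA (SE 0.35), Car9, a carbonic anhydrase known as a hypoxia target, 0.45 under STL (SE 0.16), Mdh1 −0.34 and Ugdh 0.62 under STL. Car9 was 0.27 without Ctr2 1 and Ugdh 0.37 without STL 1. Hkdc1, a further hexokinase, had a value of 2.78 in Chic 2 against 9.48 to 10.55 on the other 15 arrays, and G6pdx, the entry to the pentose phosphate pathway, a value of 6.89 in CGA 1 against 8.71 to 9.46. Their log2 fold changes, −2.40 under Chic and −0.66 under CGA, were −0.03 without Chic 2 and 0.13 without CGA 1.

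The genes whose pattern over the 16 arrays lay closest to that of Khk were Ubxn6, Fuom, Zfand2b, Slc35b2 and Grcc10. After centring each gene, their root mean square distance from Khk was 0.16, 0.18, 0.20, 0.20 and 0.20 of log2, against a median of 0.56 over 3778 genes. All 5 had their highest value on Fru 2, as Khk did. Without that array the 5 closest genes included Zfand2b, Uqcrc1, Ccdc28a and Dcaf8, and 1 gene, Zfand2b, was shared.

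Several enzymes were read by more than 1 probe: Gapdh by 8, Gpi1 by 3 and Hk1, Tpi1 and Ldha by 2 each. Of 100 tests of enzyme probes in the 4 diets, 0 passed in limma (background 0% under Chic, CGA and STL and 0.0191% under Fru of all probes), and 1 had an unadjusted p under 0.05. The Gapdh probes ran from −0.20 to 1.26 on the log2 scale under STL. The 1.26 belonged to the probe A_55_P1965725, and the other Gapdh probes ran from −0.20 to 0.22. On Ctr2 2 that probe lay at −6.28 from the brightest Gapdh probe, against a median of −3.44 over the arrays.

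The gap between probes of 1 gene was not the same on all arrays. For Tpi1 the dimmer probe lay at −3.81 from the brighter one on STL 3 and −3.64 on CGA 1, against a median of −2.72 over the 16 arrays. For Ldha it lay at −3.15 on CGA 1 and −2.79 on STL 3, against a median of −2.19. For the Gapdh probe A_55_P1994258 it lay at −5.98 on STL 3 and −5.42 on CGA 1, against a median of −4.41. Of 12 such probe pairs among the enzymes, 6 had their lowest difference on CGA 1 or STL 3, and these 3 were the ones with their 2 lowest values on those arrays. Most of the 12 are Gapdh pairs that share the same brightest probe, so they are not independent. That probe had its highest value on STL 3 (14.05). Over 571 probe pairs of all genes, 9.98% were lowest on CGA 1, 13.3% on STL 3 and 13.3% on CGA 3. The enzyme values above use the brightest probe of each gene.

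**Figure D4:**
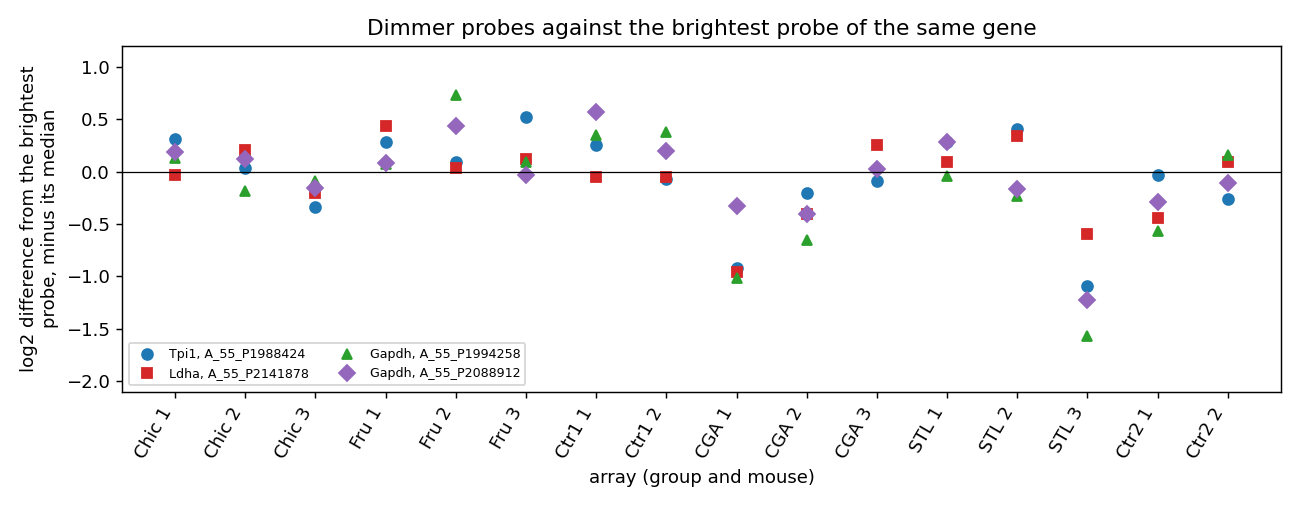
Log2 difference between a dimmer probe and the brightest probe of Tpi1, Ldha and Gapdh (y axis, relative to its median over arrays) on each of the 16 arrays (x axis, by group). The dimmer Tpi1 and Ldha probes and the Gapdh probe A_55_P1994258 reach their 2 lowest values on CGA 1 and STL 3.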

How the data were processed

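The authors scanned the arrays and deposited, per the labels from Agilent Feature Extraction (version not given in the sources used here), 1 table of intensity values per tissue. The caecum table held 6214 rows, of which 227 were control rows and 878 had no symbol. The methods name GenePix Pro and a quantile normalization, but the deposited array medians differ. Intensities were therefore log2-transformed, 23 values at or below 0 were set to missing, 3 lay at or above 65000, and the 16 arrays were quantile-normalized. Rows sharing a probe were averaged, and each gene was read from its brightest probe. All 6 groups entered 1 fit in limma 3.58.1 (R 4.3.3; lmFit, eBayes, two-sided), with Benjamini-Hochberg adjustment over 3779 genes at a threshold of 0.05. The tests were checked on simulated data. Columns named CQA were taken as the CGA samples. The number of arrays limits the precision. The counts include 1 enzyme whose own values are not reported here, and 1 gene near Khk is likewise left unnamed. Members and lists were chosen with earlier results of these data known. The genes named are the other enzymes of the rule, the gene with the largest moderated statistic of each list and the 5 nearest to Khk. Alternatives were the values as deposited, a shift to the 75th percentile, an offset of 50, the mean of all probes, the dimmest 25% of genes left out, a mean-variance trend, only the groups compared, pooled controls, the replicate block and each array left out.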

Additional observations from a re-analysis of the deposited data

How the results depend on the processing

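Of 892 values of 36 single-gene results under 25 alternatives, 863 kept their direction and their side of the threshold, 28 turned their sign (14 of them with values as deposited, and all 14 had their first sign again relative to the median of all genes) and 1 passed the threshold (Slc2a1 under CGA without Ctr2 replicate 1, 2.28 on the log2 scale). The 27 enzyme results among them did not pass under any of these alternatives, with a lowest adjusted p in limma of 0.621. Many of the 863 values could not have turned. A fold change stays the same when the array left out belongs to neither group compared. It also stays the same with the mean-variance trend, with only the groups compared and with the dim genes left out. The count of 863 is therefore no measure of how stable the signs are.

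With values as deposited, the log2 differences turned for Khk under Chic (−0.046) and Fru (−0.28) and in Fru against Chic (−0.23), for Tpi1 under Chic (−0.0055) and Fru (−0.27), for Eno3 (−0.23), Gapdh (−0.24), Ldha (−0.33), Pfkl (−0.19), Akr1b3 (−0.36) and Pcx (−0.11) under Fru, for Eno1 (−0.073) and Pgk1 (−0.14) under CGA and for Gapdh under STL (−0.047). The median over the enzymes was then −0.70 under Fru and −0.25 under STL, and that of all genes −0.60 and −0.31. Since taking off the median of all genes is itself a scaling, the signs that returned relative to it are no separate support. Gapdh under Fru was −0.058 with the mean of all probes, and Ldha under Fru −0.054 with pooled controls. The genes called under Fru were 0 instead of 1 with values as deposited, with only the groups compared and with pooled controls, and 1 instead of 0 under Chic with the offset of 50 and with the dim genes left out, a filter that also removed Khk.

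Same-numbered arrays did not deviate together throughout (correlations from −0.40 to 0.57), so the numbers were not taken to pair mice. With the replicate block the genes called under Fru were 0, and Ldha under Fru was −0.037.

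Leaving out single arrays, the values ran from −0.075 to 0.23 for Khk under Chic, −0.41 to 0.73 for Khk under Fru, −0.50 to 0.64 for Khk in Fru against Chic, −0.36 to 0.065 for Aldoa, −0.32 to 0.14 for Pgam1 and −0.23 to 0.19 for Ldha under Fru, −1.07 to 0.13 for G6pdx and −0.22 to 0.58 for Pgk1 under CGA, −0.27 to 0.11 for Pgam1 under STL and 0.44 to 2.28 for Slc2a1. The median over the enzymes under Fru ran from −0.15 to 0.065, the higher value without Fru 2. The genes called ran from 0 to 40 under Chic, 0 to 43 under Fru, 0 to 22 under CGA, 0 to 20 under STL and 0 to 38 in Ctr2 against Ctr1. The highest counts came without Ctr1 1 (under Chic and Fru and between controls) and without Ctr2 1 (under CGA and STL), which leave a lone control assumed to vary like the other groups. The list of the 5 genes nearest to Khk without Fru 2, chosen after seeing the data, shared 1 gene with the first.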
